A study of Mus musculus with 6 samples.

Results

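Junb and Jund encode JunB and JunD, members of the AP-1 family of transcription factors, and their transcripts were followed in mouse CD4+ T cells exposed to tunicamycin. The rows were chosen by gene symbol, taken from the Ensembl identifiers, without use of their values. They are 2 of the 13685 gene rows analysed here, and both were among the 3613 genes tested. The cells came from spleen and mesenteric lymph node of C57BL/6 mice. All libraries carry the genotype label WT, and the cultured cells were the CD25-negative fraction, CD25 being a marker of regulatory T cells. The control cells, titled as untreated, are also described as having received vehicle, and the treated cells received tunicamycin at 0.15 µg/mL. Both groups were cultured for 4 h and hold 3 libraries each. The age, sex and number of mice are not given in the labels. Libraries of a group are labelled as technical replicates, so p-values measure the spread between libraries and not between animals.

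AP-1 proteins bind DNA as pairs through a basic region followed by a leucine zipper. Jun proteins pair with each other or with Fos, Batf and Atf proteins, and in T cells AP-1 acts beside NFAT and IRF4 at cytokine and activation genes. JunB is an immediate early gene product, made quickly after receptor signals, and is known for its part in T helper cell differentiation. JunD is broadly present in resting cells and is known to restrain proliferation. Tunicamycin blocks N-linked glycosylation and thereby causes endoplasmic reticulum stress.

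The summed counts of the rows analysed ran from 7412151 to 9495725 in the vehicle and from 10584276 to 11211270 in the tunicamycin libraries. The groups thus did not overlap, and what this difference adds to the count and TPM results was not tested. These are sums over a part of the transcriptome rather than depths. As a check of the labelled cell type, 6 of 10 listed T cell markers had a row and summed to 1636 to 1730 TPM (a level corrected for transcript length and scaled to a fixed total) over the libraries. Of the defining CD4 T cell markers, Cd40lg alone had a row, at a mean of 49.4 TPM, and Cd4 itself was not analysed here. The 3 B cell markers with a row summed to 0.745 to 1.22 TPM, and Cd8b1, a CD8 T cell marker, averaged 10.7 TPM. Il2ra, which encodes CD25, lay between 6.87 and 14.1 TPM. Of 4 listed regulatory T cell markers it alone had a row, so how many such cells remained was not tested. Plasma cell markers summed to 22.2 to 192 TPM, and their leading gene Igha was at 77.8, 152 and 18.6 TPM in vehicle libraries 1, 2 and 3 and at 86.8, 159.6 and 21.5 TPM in tunicamycin libraries 1, 2 and 3, so it differed by library number more than by group. Its part in the results below was not tested. In bulk RNA, fewer cells of a type and less RNA per cell cannot be told apart.

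Both genes are short, carry their whole coding sequence in a single exon, and lie on chromosome 8. In GRCm38 coordinates Junb (ENSMUSG00000052837) spans chr8:84974484-84978718 on the minus strand, and its coding transcript Junb-201 covers chr8:84976910-84978718. Jund (ENSMUSG00000071076) spans chr8:70698949-70700616 on the plus strand. The family's founding member Jun (ENSMUSG00000052684), also of a single exon, lies on chromosome 4 and is given for comparison. The transcripts are rich in G and C: 62.6% of Junb and 67.1% of Jund, more than in 98.3% and 99.8% of tested genes, against 55.5% of Jun. The coding stretch of 100 bases with the highest G and C content is printed for each gene, since base composition moves with a difference between the deposited count and TPM values described below. Capitals mark unbroken runs of at least 8 G or C bases, and all are in coding sequence read 5′ to 3′ from the annotated transcript on GRCm38.
Junb, chr8:84977890-84977989, minus strand: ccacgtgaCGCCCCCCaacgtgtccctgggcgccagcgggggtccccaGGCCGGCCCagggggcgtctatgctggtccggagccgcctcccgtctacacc
Jund, chr8:70699626-70699725, plus strand: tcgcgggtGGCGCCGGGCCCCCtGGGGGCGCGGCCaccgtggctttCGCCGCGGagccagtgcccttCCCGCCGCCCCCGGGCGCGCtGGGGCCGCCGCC
Jun, chr4:95050642-95050741, minus strand: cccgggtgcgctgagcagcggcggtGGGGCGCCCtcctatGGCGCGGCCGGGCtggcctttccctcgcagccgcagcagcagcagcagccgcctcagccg
These stretches hold 76.0% G and C in Junb, 86.0% in Jund and 78.0% in Jun. The longest run of G and C in the coding sequence was 11 bases in Junb, 20 in Jund and 13 in Jun. Jund had 16 such runs of at least 8 bases, against 9 in Junb and 8 in Jun.

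Related genes can share reads, so the transcripts were compared. The longest stretch common to Junb and Jund was 14 bases, gtggcgcagctcaa, which lies near the 3′ end of both coding sequences, at chr8:84977465-84977478 and chr8:70700000-70700013. No run of 31 bases was shared between Junb, Jund and Jun on either strand. Junb-201 shared none with a transcript of any other gene. The other annotated Junb transcript, Junb-202 of 492 bases, was not compared. Prdx2, on the plus strand and not analysed here, overlaps the Junb gene by 351 bases, outside Junb-201. Whether reads of Junb-202 and Prdx2 can be told apart was not tested. Of the 1638 runs of 31 bases in Jund, 820 also occur, on the opposite strand, in Gm11175, an antisense gene that overlaps Jund by 919 bases. How strand was treated in the counting is not given in the sources used here, so reads of Jund and Gm11175 may not be told apart.

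Per transcript length, Junb and Jund stood at nearly the same level and about 10 times above Jun. Mean TPM over the 6 libraries was 99.0 for Junb and 103 for Jund, above 96.0% and 96.3% of the rows with any reads, and 10.1 for Jun. The ratio of mean TPM to that of Jun was 9.83 for Junb and 10.3 for Jund. Of 21 listed AP-1 family genes 10 had a row and 8 were tested, and the order of mean TPM among the 8 was Atf4, Jund, Junb, Atf7, Jun, Batf, Fosb and Maf. Atf4, the effector of the integrated stress response that can pair with AP-1 proteins, led at 137 TPM, and its lowest library (131) lay above the highest of Jund (116) and Junb (118). The range of Jund (89.8 to 116 TPM) lay within that of Junb (82.0 to 118 TPM), so the levels of these genes were not separated by their spread. Both lay above every library of Atf7, a relative of ATF2, which ran from 29.4 to 52.0 TPM. Jun, Batf (a partner of JunB and IRF4), Fosb (a Fos protein) and Maf ran from 2.99 to 11.6 TPM and overlapped their neighbours in the order. Fosl1, a Fos protein under the filter on low counts, was at most 0.0618 TPM in every library. Fos, Fosl2, Batf3 and Atf3 were not analysed here.

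**Figure D1:**
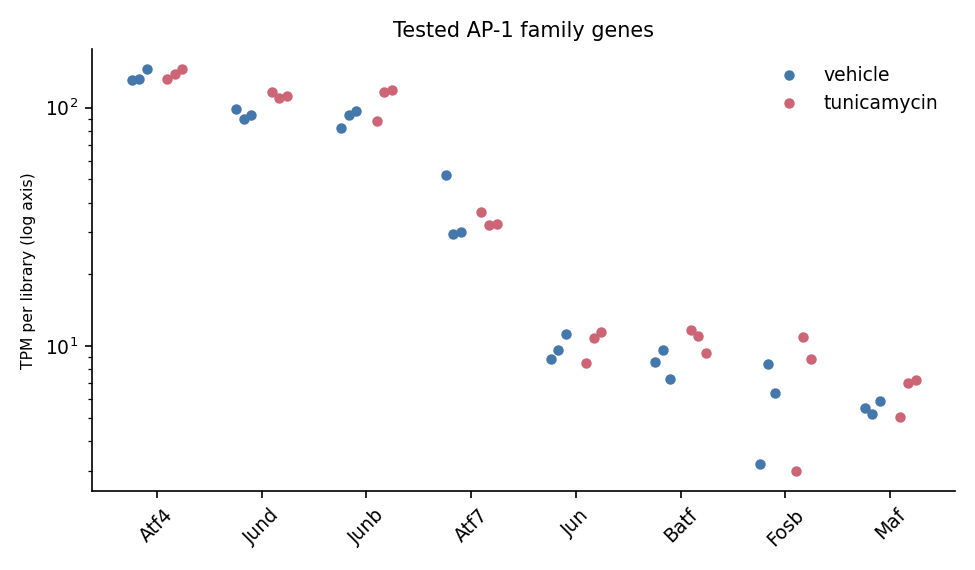
TPM of the 8 tested AP-1 family genes, on a log axis, with 1 point per library (blue vehicle, red tunicamycin). Jund and Junb sit together near 100 TPM, about 10 times above Jun, and below Atf4.

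In depth-scaled counts, neither gene passed the test between tunicamycin and vehicle, and both differences lay within the spread of the libraries. The scale is CPM, counts scaled to depth with TMM factors, which even out library composition. Junb was at 800.4, 931 and 995 CPM in vehicle libraries 1, 2 and 3 and at 761, 993 and 1008 CPM in tunicamycin libraries 1, 2 and 3. The groups overlapped, and in each group the library numbered 1 was the lowest. The means were 909 ± 99.4 CPM in vehicle and 921 ± 138 CPM in tunicamycin (SD, n = 3 each). The log2 fold change of Junb was 0.02 with an SE of 0.13 and a 95% interval of -0.28 to 0.31, that is 0.825-fold to 1.24-fold (edgeR adjusted p = 0.99). Jund was at 815, 777 and 814 CPM in vehicle libraries 1, 2 and 3 and at 818, 776 and 779 CPM in tunicamycin libraries 1, 2 and 3. These groups overlapped too, with the library numbered 2 lowest in each; groups that do not overlap in CPM were found for 6.62% of tested genes higher and 5.95% lower in tunicamycin. The means were 802 ± 22.1 CPM in vehicle and 791 ± 23.5 CPM in tunicamycin (SD, n = 3 each). The log2 fold change of Jund was -0.02 with an SE of 0.05 and a 95% interval of -0.13 to 0.09, that is 0.912-fold to 1.07-fold (edgeR adjusted p = 0.98). So 0 of the 2 genes passed the threshold of 0.05 in edgeR, in DESeq2 or in limma, against 0.083% of all tested genes in edgeR (3 of 3613, 0.0554% higher and 0.0277% lower), 0.637% in DESeq2 and 0.0277% in limma on log2(TPM + 1). At an unadjusted p under 0.05 the edgeR fit held 0 of the 2 genes, against 6.42% of all tested genes. Jun was at 116, 130.2 and 156 CPM in vehicle libraries 1, 2 and 3 and at 104, 131 and 139 CPM in tunicamycin libraries 1, 2 and 3, with a log2 fold change of -0.11 (95% interval -0.39 to 0.18).

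With the replicate number as a block, neither gene was called, and the interval of Junb became narrower. Its log2 fold change was 0.01 with an SE of 0.04 and an interval of -0.08 to 0.10 (edgeR adjusted p = 0.96). For Jund the blocked value was -0.02 with an interval of -0.10 to 0.06 (edgeR adjusted p = 0.94). Over all genes the block raised the number of calls from 3 to 36, or 0.996% of those tested, and 10.7% had an unadjusted p under 0.05. The block rests on a pairing by number that was read from these same data, as the labels do not state it.

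**Figure D2:**
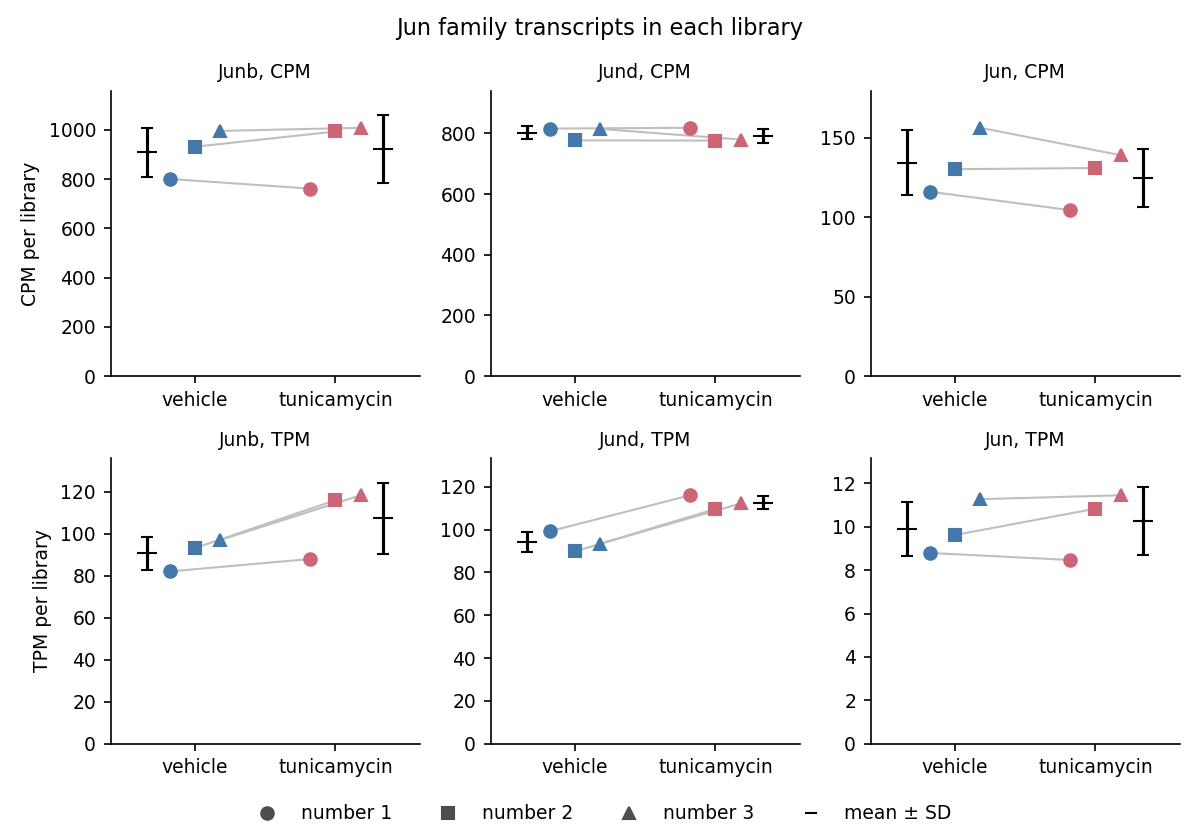
Level of Junb, Jund and Jun in each library, in TMM-scaled CPM (top) and deposited TPM (bottom), with axes from 0. Grey lines join libraries of the same number, and the bars are the mean ± SD of 3 libraries; Junb and Jun were lowest in the libraries numbered 1 of both groups, while the Jund groups overlapped in CPM and did not overlap in TPM.

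On the TPM scale the same libraries gave another picture, most clearly for Jund. Jund was at 99.2, 89.8 and 93.4 TPM in vehicle libraries 1, 2 and 3 and at 116, 109.7 and 112 TPM in tunicamycin libraries 1, 2 and 3. All 3 tunicamycin libraries lay above all 3 vehicle libraries, as was the case for 10.4% of tested genes, while 3.54% had all tunicamycin libraries below. The means were 94.1 ± 4.75 and 113 ± 3.21 TPM (SD, n = 3 each), a fold of 1.20 between geometric means (2-sided exact permutation test, p = 0.1, the smallest that 3 against 3 libraries allow). In limma on log2(TPM + 1) the log2 fold change of Jund was 0.26 with a 95% interval of 0.11 to 0.40 (unadjusted p = 0.0037). It missed the threshold over all genes (limma adjusted p = 0.37), and 7.94% of tested genes had an unadjusted p under 0.05 in that fit. Junb was at 82.0, 93.1 and 96.9 TPM in vehicle libraries 1, 2 and 3 and at 87.9, 116 and 118 TPM in tunicamycin libraries 1, 2 and 3. The groups overlapped because tunicamycin library 1 lay below vehicle libraries 2 and 3. The log2 fold change of Junb on this scale was 0.23 with a 95% interval of -0.06 to 0.53 (limma adjusted p = 0.68). Within each library number, both genes were higher in tunicamycin in TPM, by 0.23, 0.29 and 0.26 for Jund and by 0.10, 0.32 and 0.29 for Junb on the log2 scale. The median log2 fold change over all tested genes was 0.05 in this fit. That is below each of these values, but not small beside the 0.10 of Junb in number 1.

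The count and TPM scales are linked by a length correction that can differ between libraries. A gene's count divided by its TPM measures the effective length used in the quantification, up to a factor common to the library. Relative to the median gene of each library, this log2 ratio for Jund averaged 0.12 ± 0.02 over the vehicle and -0.12 ± 0.03 over the tunicamycin libraries (SD, n = 3 each), after centring on the gene's own mean. The difference of -0.24 was lower than for all but 2.88% of the 3399 tested genes with values above 0 in every library. For Junb it was -0.18, lower than for all but 4.94%, and for Jun -0.11, lower than for all but 11.4%. The order of the shifts, Jund, Junb and Jun, was the order of their G and C content. Over all tested genes the median shift was 0.02 at a G and C content under 45%, -0.05 from 55% to under 60% (600 genes), -0.12 from 60% to under 65% (113 genes) and -0.19 from 65% (21 genes). Across genes, which are not independent replicates, Spearman's rho of shift and G and C content was -0.39, while with transcript length it was -0.09. With this ratio entered as an offset, edgeR gave Jund a log2 fold change of 0.20 with a 95% interval of 0.06 to 0.34 (edgeR adjusted p = 0.48) and Junb 0.18 with an interval of -0.09 to 0.45 (edgeR adjusted p = 0.84). In that fit 0.0554% of genes were called and 7.5% had an unadjusted p under 0.05, among them Jund. With the offset and the replicate block together the values were 0.20 (interval 0.10 to 0.30, edgeR adjusted p = 0.22) and 0.17 (interval 0.06 to 0.29, edgeR adjusted p = 0.32), in a fit that called 0.166% of genes and gave 10.0% an unadjusted p under 0.05, both of these among them. Whether the correction or the raw count lies nearer to the RNA in the cells was not tested.

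**Figure D3:**
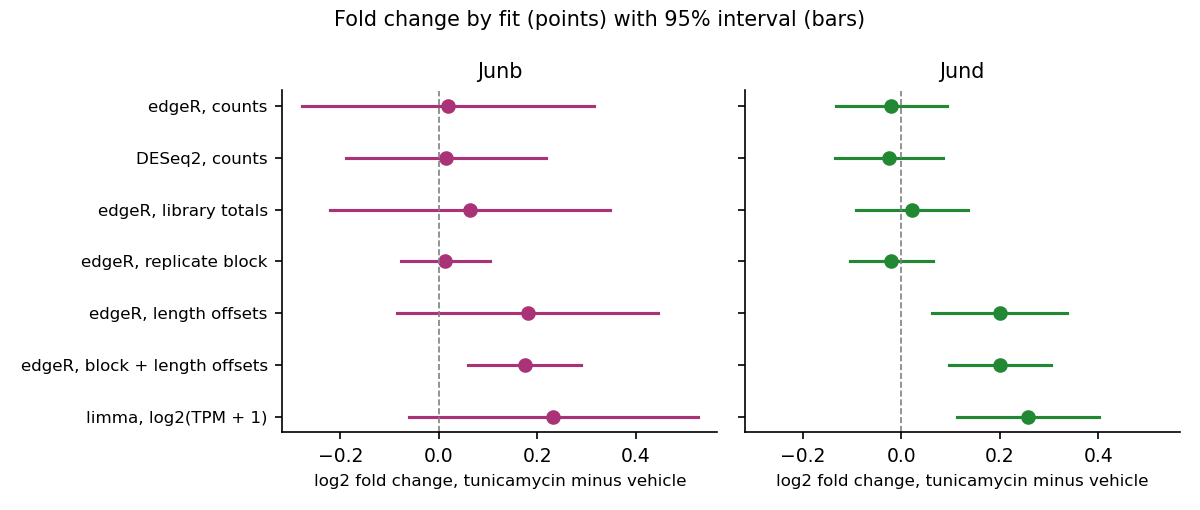
Log2 fold change of Junb and Jund, tunicamycin minus vehicle, in 7 fits, as points with 95% intervals. The 4 fits on counts without a length correction lie within 0.07 of 0, while the 3 that use effective lengths or TPM lie between 0.17 and 0.26.

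**Figure D4:**
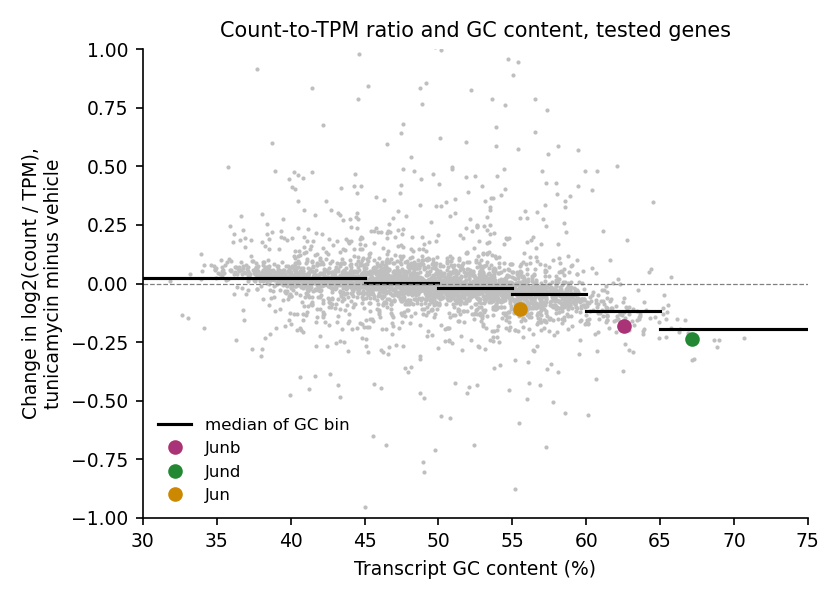
Change of log2(count / TPM) between the groups against transcript G and C content for 3389 tested genes, of which 16 lie outside the axes. Black lines are medians of G and C bins; Jund and Junb lie at the rich end, at -0.24 and -0.18.

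The genes differed in how far their libraries lay apart. Within groups, the pooled SD of log2 CPM was 0.20 for Junb and 0.04 for Jund. For Junb this was 12.5 times the SD that counting alone gives, and for Jund 2.45 times. Of 272 other tested genes within 1 log2 CPM of Junb in abundance, 96.0% had less spread, and their median SD was 0.07. Of 316 genes of like abundance to Jund, 15.5% had less spread. So at a similar level, Junb was among the most variable genes between these libraries, and Jund among the steadier ones. In CPM over all 6 libraries Junb spanned 1.32-fold and Jund 1.05-fold, while the SD of log2 CPM of Jun was 0.22. In TPM the ranges were closer, at 82.0 to 118 for Junb and 89.8 to 116 for Jund. There the Jund groups lay apart. Within groups the SD in TPM was 7.76 (vehicle) and 16.9 (tunicamycin) for Junb, and 4.75 and 3.21 for Jund.

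**Figure D5:**
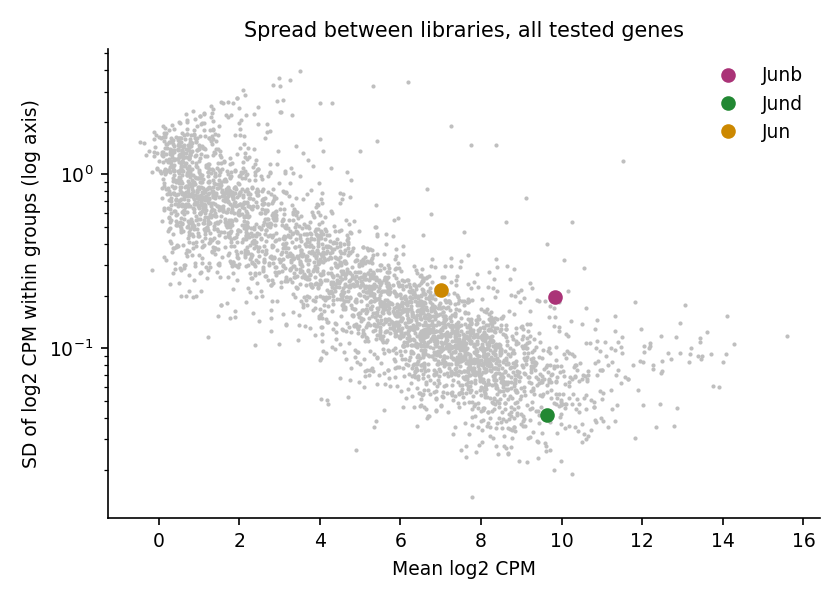
SD of log2 CPM within groups (log axis) against mean log2 CPM for 3613 tested genes. At nearly the same abundance Junb lies at 0.20, above most genes, and Jund at 0.04, below most.

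The spread of Junb followed the library number. In both groups its library numbered 1 was the lowest. Without both, an alternative chosen after seeing the data, the log2 fold change was 0.06 with an interval of -0.10 to 0.21 (edgeR adjusted p = 0.96). The ratio of Junb to Jund in TPM, which does not depend on depth, was 0.827, 1.04 and 1.04 in vehicle libraries 1, 2 and 3 and 0.758, 1.06 and 1.05 in tunicamycin libraries 1, 2 and 3. The number 1 libraries thus stood apart from the others in both groups, and the groups did not separate. On the log2 scale the ratio averaged -0.06 ± 0.19 for vehicle and -0.08 ± 0.28 for tunicamycin (SD, n = 3 each). They differed by -0.03 (2-sided exact permutation test, p = 1; the smallest p that 3 against 3 allow is 0.1).

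Some other activation genes, though not all, were also lowest in the libraries numbered 1. Fosb, whose product pairs with Jun proteins, was at 51.4, 132 and 92.8 CPM in vehicle libraries 1, 2 and 3 and at 45.8, 162 and 117 CPM in tunicamycin libraries 1, 2 and 3. Nr4a1, an orphan nuclear receptor that reports T cell receptor signals, was at 327, 674 and 592 CPM in vehicle libraries 1, 2 and 3 and at 265, 824 and 669 CPM in tunicamycin libraries 1, 2 and 3. For both genes the library numbered 1 was well below the other two in each group. Of 8 tested AP-1 genes, 6 had the library numbered 1 lowest in both groups, Junb itself counted, as had 16 of 32 tested immediate early and early activation genes, against 12.8% of all 3613 tested genes. It was highest in both groups for 3 of the 32, against 12.1% of all. The library numbered 1 was also lowest in both groups for 4 of 10 targets of the unfolded protein response. Atf4 is among these and is counted among the AP-1 genes as well. For T cell genes with known AP-1 sites it was 3 of 13, and in both lists 0 were highest in number 1 of both groups. In the list of kinases upstream of Jun proteins 2 of 6 were lowest in number 1 and 2 highest. Of partners and regulators 0 of 4 were lowest and 2 highest. So the pattern was not confined to activation genes, and the kinase and partner lists showed no lean towards it. These counts were chosen after the values of Junb were seen. Among the 16 activation genes were Dusp1, Dusp4, Dusp5 and Dusp10, which encode phosphatases of MAP kinases, Nfkbia, the inhibitor of NF-κB, and the surface marker Cd69. The 16 also held Btg1, of the antiproliferative BTG/TOB family, Zfp36l1, Zfp36l2 and Klf4, so not all are markers of activation. Jund was instead highest in number 1 of both groups, at 815 against 777 and 814 CPM in vehicle and 818 against 776 and 779 CPM in tunicamycin. It was the 1 of the 8 AP-1 genes for which this held. Over the 6 libraries, Pearson's r in log2 CPM was 0.90 between Junb and Jun, -0.67 between Junb and Jund and -0.33 between Jund and Jun, given as a description of libraries that share their scaling.

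The genes most like Junb over the 6 libraries, among 1911 others whose mean log2 CPM reached 5, were Clk3, a kinase of splicing factors, Dirc2, Tob2, an antiproliferative BTG/TOB family gene, Dusp1 and 2610008E11Rik, with Pearson's r from 0.97 to 0.99. Dusp1 was at 166, 213 and 222 CPM in vehicle libraries 1, 2 and 3 and at 170.3, 228 and 225 CPM in tunicamycin libraries 1, 2 and 3. Of 23 immediate early and early activation genes at that abundance, 19 had an r above 0 with Junb, with a median of 0.62, against 49.0% of all such genes and a median of -0.01. Some other lists also had most members above 0 with Junb. These were 7 of 8 targets of the unfolded protein response (median 0.47), 5 of 6 T cell genes with known AP-1 sites (0.25) and 5 of 6 other AP-1 genes (0.81). The list of kinases upstream of Jun proteins (1 of 4, median -0.43) and that of partners and regulators (1 of 4, median -0.30) went the other way. The genes most like Jund were Klhl2, Klf2, Atg5, Ier5 and Fem1a, with r from 0.97 to 0.99. Klf2 is a factor of quiescent and recirculating T cells, Atg5 an autophagy gene and Ier5 an immediate early gene. For Junb and Jund alike, the genes named as most like them have the highest of 1911 values of r, each over 6 libraries. Whether r this high exceeds what so many comparisons give by chance was not tested. The names are thus a description and not a sign of shared regulation. Klf2 lay at 3394, 3106 and 3349 CPM in vehicle libraries 1, 2 and 3 and at 3339, 3093 and 3083 CPM in tunicamycin libraries 1, 2 and 3, with library 2 lowest in vehicle and library 3 in tunicamycin. Of the same 23 genes, 7 had an r above 0 with Jund, with a median of -0.19, against 56.1% of all such genes and a median of 0.12. With Jund, 4 of 4 partners and regulators were above 0 (median 0.64), as were 4 of 8 targets of the unfolded protein response (-0.07). So were 2 of 4 genes of the kinase list (-0.06), 1 of 6 other AP-1 genes (-0.47) and 1 of 6 T cell genes with known AP-1 sites (-0.64).

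No gene of the pathway lists was called, in a fit that called 0.083% of all tested genes and gave 6.42% an unadjusted p under 0.05, so counts of 0 say little about the lists. None of the 8 tested AP-1 genes passed (edgeR, 0 at an unadjusted p under 0.05), with a median log2 fold change of 0.00, the same as the median over all genes tested. Batf had the highest value, 0.25 (95% interval -0.09 to 0.59), and Atf4 was at -0.05. Of 32 tested immediate early and early activation genes, 0 passed, with a median of -0.01, and 1 of them, Ier3, had an unadjusted p under 0.05 at no more than 2.07 CPM in any library (edgeR adjusted p = 0.71). Their most abundant members Btg1, Klf2 and Pim1 were at -0.07, -0.05 and -0.01. In the list of kinases upstream of Jun proteins 6 of 39 genes were tested and 0 passed, with a median of -0.04. Tab1 and Gadd45g, which do not encode kinases, were among those tested. The most abundant were Map3k14 (-0.03), Map2k1 (-0.05) and Mapk11 (0.04), and the Jun kinases Mapk8, Mapk9 and Mapk10 were not analysed here. Among partners and regulators 4 of 32 were tested and 0 passed, among them Ndfip1, an adaptor of the ligase Itch that targets JunB, at -0.06 (95% interval -0.20 to 0.08), Usp28 at 0.07 and Taf7 at -0.16. Of T cell genes with known AP-1 sites 13 of 37 were tested and 0 passed, with a median of 0.14. Their most abundant members were the ferritin chain Fth1 (-0.15), the receptor Tnfrsf4 (0.04) and the chemokine Ccl5 (0.40, 95% interval 0.08 to 0.72, edgeR adjusted p = 0.61). Il2 stayed under the filter on low counts, at 0.246 ± 0.108 TPM in vehicle and 0.0938 ± 0.124 TPM in tunicamycin (SD, n = 3 each). Of 32 listed targets of the unfolded protein response 10 were tested and 0 passed, with a median of -0.04. Main targets such as Hspa5, Hsp90b1, Ddit3, Xbp1 and Herpud1 were not analysed here, so the response itself was not tested. The chaperone Calr stood at -0.14 (95% interval -0.25 to -0.03, edgeR adjusted p = 0.63), the single one with an unadjusted p under 0.05, and Derl1, of the degradation pathway, at -0.03.

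Neighbouring genes were also looked up, as both genes lie on chromosome 8. Of the 6 tested genes nearest to Junb and the 6 nearest to Jund, 3 on each side, 0 passed (edgeR). Hook2, which starts 11885 bases beyond Junb, was at 0.09 (95% interval -0.22 to 0.40). At an unadjusted p under 0.05 stood 2 neighbours of Junb, Calr (-0.14) and Dnaja2 (-0.14), and 3 of Jund, Ell (0.17), Map1s (0.19) and Ccdc124 (-0.34, edgeR adjusted p = 0.37), in both directions. Over all tested genes the share under that p was 6.42%.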

How the data were processed

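Per the submitters' processing notes, GRCm39, Salmon, bcl2fastq and DESeq2 were used, with neither role nor version stated. The authors deposited estimated counts per gene, partly fractional and not scaled to depth, and TPM values for the same rows. The annotation and bias corrections behind them were not given in the sources used here. Positions and sequences are from GENCODE M21 on GRCm38 and were not converted. Symbols matched 13627 of 13685 identifiers. Counts were rounded and tested with edgeR 4.0.16 (R 4.3.3): filterByExpr, TMM factors and the robust 2-sided quasi-likelihood F test, with Benjamini-Hochberg adjustment over 3613 genes and a threshold of 0.05. The fit was tested on simulated counts, which were drawn independently for each library and held no effect of library number. Log2 CPM uses a prior count of 2, and levels of different genes were compared in TPM. limma 3.58.1 on log2(TPM + 1) and log2(TPM + 0.1), DESeq2 1.42.0 and the other alternatives are in the closing section. Same-numbered libraries of the 2 groups deviated together (correlations of deviations from the group means 0.32, 0.12 and 0.27 over 1912 genes). Other numbers gave -0.33 to 0.08, so number 2 lay little above them. These correlations are not independent, as the deviations within a group cancel out. The numbers were taken to pair the libraries from the data, as the labels do not say so. Named genes were Junb, Jund, the AP-1 genes with a row (1 is not reported here), the 3 most abundant tested members of each list, the 5 genes most like each by Pearson's r and the 3 nearest tested genes on each side. Nr4a1, Il2, Cd69, Nfkbia, Igha, Il2ra and the named Dusp genes other than Dusp1 were added to these with their values seen or as markers. So were Zfp36l1, Zfp36l2, Klf4, Tab1 and Gadd45g, with their values seen. The genes and lists were chosen with earlier results of these data known.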

Additional observations from a re-analysis of the deposited data

How the results depend on the processing

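Neither gene passed the threshold under any of 19 alternatives, 1 of them chosen after seeing the data (without both libraries numbered 1); adjusted p ran from 0.32 to 1.00 for Junb and from 0.22 to 1.00 for Jund. The alternative filter of at least 1 CPM in 3 libraries also kept 3613 genes and gave both genes the same values, so it is no separate check. Leaving out 1 library at a time gave log2 fold changes from -0.067 to 0.14 for Junb, below 0 without vehicle library 1 or tunicamycin library 2 or 3, and from -0.045 to -0.0019 for Jund. Without a composition factor Jund was at 0.022, where the median of all genes was 0.043, so it still lay below the median gene. It was above 0 in limma on log2(TPM + 1) and log2(TPM + 0.1) (0.26 in both), with effective-length offsets (0.20) and with these and the replicate block (0.20), which all use the deposited length correction. The ratio of Junb to Jund differed by 0.033 on counts, and by -0.13 to 0.13 with 1 library left out, and its difference within library numbers was -0.03. Called higher were 2 genes and lower 1. The counts were 12 and 11 in DESeq2, 10 and 6 with no filter on low counts, 1 and 0 in limma on log2(TPM + 1), and 14 and 22 with the replicate block, whose pairing of libraries changed the call of neither gene. The replicate block with offsets called 3 genes lower, and DESeq2 size factors 2. No gene was called lower (0) in limma on log2(TPM + 0.1), edgeR without a composition factor, without robust estimation, with offsets, or without both libraries numbered 1; edgeR as reported had 232 genes at an unadjusted p under 0.05 in either direction. With 1 library left out, 1 to 4 genes were called higher and 0 to 1 lower. Counts cover part of the transcriptome, and 3 libraries a group labelled as technical replicates limit the precision.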
